A study of Mus musculus with 16 samples.

Results

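From cardiac fuel use and energy transfer, 10 genes were examined, chosen by symbol from the 22372 protein-coding genes of the deposited table, and 10 of 10 were found by their Ensembl identifiers. They comprise 3 enzymes of ketone body use (Bdh1, Oxct1 and Acat1), 3 of branched-chain amino acid breakdown (Bcat2, Bckdha and Bckdhb) and 4 genes of the creatine system (Ckm, Ckmt2, Ckb and Slc6a8). RNA came from C57BL/6J mice, 10 to 12 weeks old when the experiment started and male per the study's methods, as a piece of the heart ventricles from each of 16 animals. Transverse aortic constriction (TAC), in which a suture narrows the aortic arch so that the left ventricle pumps against a raised load, was compared with the same operation without the suture (sham). Mice of either surgery received vehicle or THZ1, a covalent inhibitor of transcriptional cyclin-dependent kinases such as CDK7, at 10 mg/kg intraperitoneally b.i.d., per the labels, from postoperative day 1 to day 60. The study's methods word the schedule differently, as daily injections of a higher single dose. This gave 4 groups of 4 libraries, called Sham-Veh and Sham-THZ1 after sham surgery, or TAC-Veh and TAC-THZ1 after TAC, and no group carried an engineered allele. Because a whole tissue piece was sequenced and THZ1 was given systemically, a lower level of a gene could reflect fewer cells that express it or less RNA in each cell, and these cannot be told apart here.

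The heart takes up ketone bodies, mainly beta-hydroxybutyrate, and oxidises them in mitochondria through acetoacetate and acetoacetyl-CoA to acetyl-CoA for the citric acid cycle. Leucine, isoleucine and valine first lose their amino group by reversible transamination, and the resulting ketoacids are then committed to oxidation by the branched-chain ketoacid dehydrogenase complex, which a kinase switches off and a phosphatase switches on. Creatine, which the heart takes up from blood by the transporter Slc6a8, is phosphorylated by mitochondrial creatine kinase, and cytosolic creatine kinase uses phosphocreatine to restore ATP near the contractile proteins.

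Depth, as reads recovered from the table, was 21.4 to 35.8 M reads a library (M, mega; median 28.2 M), and mitochondrial genes took 33.2% to 44.7% of them. The 4 pressure overload genes Nppa, Nppb, Myh7 and Acta1 were 2.46 to 4.76 higher on the log2 scale in TAC-Veh than in Sham-Veh, so the surgery labels matched the data. One TAC-Veh library, replicate 2, stood apart. It had the lowest summed cardiomyocyte markers (0.922 M normalized counts), the highest summed fibroblast markers and the lowest mitochondrial share of all libraries, and it was the lowest TAC-Veh library for 8 of the 10 genes. Values without it are given where leaving it out changed a call or moved a called value by over 1.5 times. P-values of the gene tests (limma) measure the spread between mice within groups, estimated over all 4 groups together. For each of the 10 genes the coefficient of variation was higher in TAC-Veh than in Sham-Veh. The pooled spread can therefore be smaller than that of TAC-Veh alone. With TAC-THZ1 and TAC-Veh fitted alone, 1399 of all genes were called, against 3918 with all groups.

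All 10 genes were expressed well above the detection limit. Divided by exon length, the highest levels in Sham-Veh were those of Ckmt2 at 31163 ± 752 and Ckm at 30460 ± 1374 normalized counts per kb (mean ± SD, n = 4), whose ranges overlapped. By mean level per kb over all 16 libraries they ranked 29 and 32 among the 13331 genes tested. Oxct1 followed at 8645 ± 264, Acat1 at 3799 ± 18.2 and Bckdha at 3388 ± 86.9 normalized counts per kb, each apart from its neighbours in this order. Bckdhb at 871 ± 37.0, Slc6a8 at 782 ± 65.7 and Bdh1 at 707 ± 102 normalized counts per kb formed a run in which neighbours overlapped, and Bcat2 at 569 ± 12.2 and Ckb at 398 ± 29.7 were the lowest. In TAC-Veh the order changed at the low end. Bdh1 rose to sixth place at 1455 ± 225 normalized counts per kb, apart from the genes on either side, and Ckb at 740 ± 162 passed Bckdhb at 473 ± 108 and Bcat2 at 428 ± 54.0.

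With TAC, 2 of the 10 genes rose (Bdh1 and Ckb), 6 fell (Oxct1, Acat1, Bcat2, Bckdha, Bckdhb and Ckm) and 2 did not pass the test (Ckmt2 and Slc6a8), by limma at a Benjamini-Hochberg adjusted p under 0.05. Of all genes tested in this comparison, 45.0% were called, 21.4% higher and 23.6% lower. With THZ1 in TAC mice, 5 rose (Acat1, Bcat2, Bckdha, Bckdhb and Ckm) and 1 fell (Ckb), against 29.4% of all genes called, 15.1% higher and 14.2% lower. The groups did not overlap for 7 of the 10 genes with TAC, where 37.3% of all genes showed no overlap (18.2% upward and 19.1% downward), and for 5 with THZ1 in TAC, where 20.0% did (9.53% upward and 10.5% downward). At the fold thresholds of the study's methods, 1 of the 10 genes passed with TAC (Bdh1), against 4.64% of all genes higher and 3.37% lower, and 0 with THZ1 in TAC, against 1.85% higher and 3.62% lower. Both comparisons use the same TAC-Veh libraries, so a chance deviation in those 4 animals moves both in opposite directions. The median log2 fold change of the 10 genes was -0.39 with TAC and 0.30 with THZ1 in TAC, where the medians of all genes tested were -0.003 and 0.01.

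**Figure D1:**
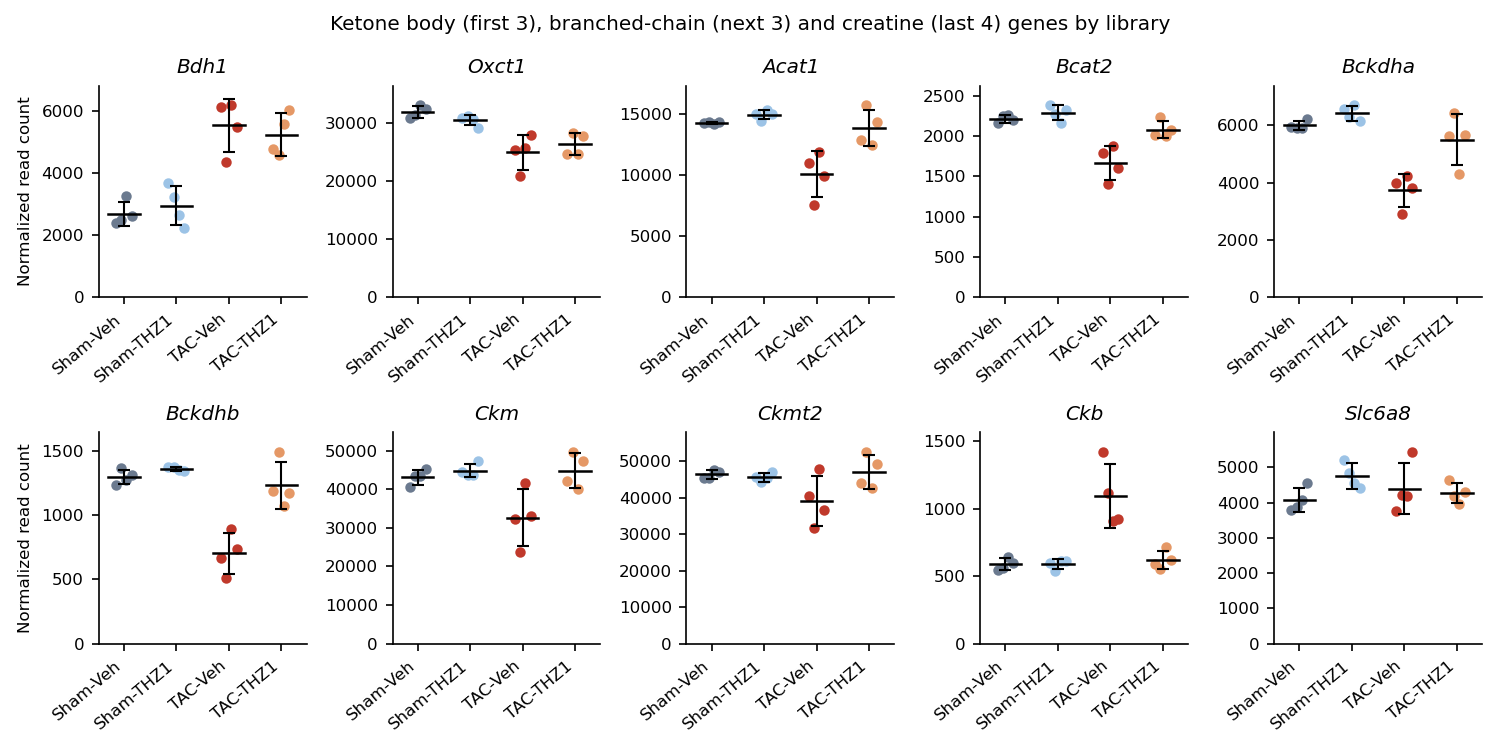
Normalized read count (y axis, linear from 0) of each of the 10 genes in the 4 groups (x axis). Points are libraries, the wide line is the group mean and the bar is the SD over 4 libraries. Bckdhb in TAC-Veh lies at 511 to 896, below all other groups, and Ckb in TAC-Veh at 911 to 1423, above all other groups, while Bdh1 is high in both TAC groups.

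The sequence upstream of a gene holds sites for the transcription machinery, and RefSeq promoters (GRCm38.p6, 250 bases before to 50 after a start) were found for 8 of the 10 genes and not for Acat1 and Slc6a8. Shown are the promoters of Bdh1, which stayed high in TAC-THZ1, of Bckdhb, which changed most among the genes that fell, and of the cytosolic creatine kinases Ckb and Ckm, which moved in opposite directions. Each is written 5′ to 3′ on the strand of the gene, for the upstream start where RefSeq lists 2.
Bdh1, chr16:31422047-31422346, plus strand: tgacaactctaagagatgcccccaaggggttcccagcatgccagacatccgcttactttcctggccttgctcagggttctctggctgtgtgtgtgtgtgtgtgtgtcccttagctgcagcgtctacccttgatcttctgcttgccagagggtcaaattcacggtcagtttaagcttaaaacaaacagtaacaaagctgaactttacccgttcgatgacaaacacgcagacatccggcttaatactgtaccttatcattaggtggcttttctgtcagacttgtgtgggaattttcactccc
Bckdhb, chr9:83924887-83925186, plus strand: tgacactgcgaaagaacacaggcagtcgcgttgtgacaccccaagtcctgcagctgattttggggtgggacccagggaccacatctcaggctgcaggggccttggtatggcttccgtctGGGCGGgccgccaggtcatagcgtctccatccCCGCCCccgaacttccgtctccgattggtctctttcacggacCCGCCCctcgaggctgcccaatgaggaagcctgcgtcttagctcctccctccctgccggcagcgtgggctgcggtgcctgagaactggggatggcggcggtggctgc
Ckb, chr12:111672289-111672588, minus strand: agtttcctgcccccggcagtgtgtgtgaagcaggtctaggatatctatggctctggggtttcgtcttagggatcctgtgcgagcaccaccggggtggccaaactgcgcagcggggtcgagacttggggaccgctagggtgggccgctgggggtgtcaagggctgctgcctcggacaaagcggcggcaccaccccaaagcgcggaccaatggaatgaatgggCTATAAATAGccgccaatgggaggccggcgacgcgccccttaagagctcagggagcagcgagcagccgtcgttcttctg
Ckm, chr7:19410844-19411143, plus strand: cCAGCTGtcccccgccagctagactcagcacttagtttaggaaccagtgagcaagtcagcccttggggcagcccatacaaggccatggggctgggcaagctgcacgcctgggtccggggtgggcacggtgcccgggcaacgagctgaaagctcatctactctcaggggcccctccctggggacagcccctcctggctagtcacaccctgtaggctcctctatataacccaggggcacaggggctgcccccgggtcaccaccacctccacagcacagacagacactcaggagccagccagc
Capitals mark GC boxes (GGGCGG) in Bckdhb, a MEF2 motif in Ckb and an E-box (CANNTG) in Ckm, searched on both strands. In all 6 motifs were searched. Of 32851 RefSeq promoters of this length 35.7% held a GC box, 3.69% the MEF2 motif, 72.3% an E-box, 37.4% a CCAAT box (CCAAT), 13.6% a TATA box (TATAAA) and 16.3% the nuclear receptor motif AGGTCA. The Bckdhb window held 3 GC boxes and 2 CCAAT boxes, and it also held 1 AGGTCA and 1 E-box. The MEF2 motif of Ckb began at -29 relative to the start, overlapped a TATA box at -28, and had 2 CCAAT boxes near it. The Ckm window held 1 E-box and none of the other motifs, and that of Bdh1 held none of the 6, which says only that these letters are absent from this window. At the second listed start of Bdh1 the window held 1 GC box and 1 E-box, and at that of Bckdhb 1 CCAAT box.

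**Figure D2:**
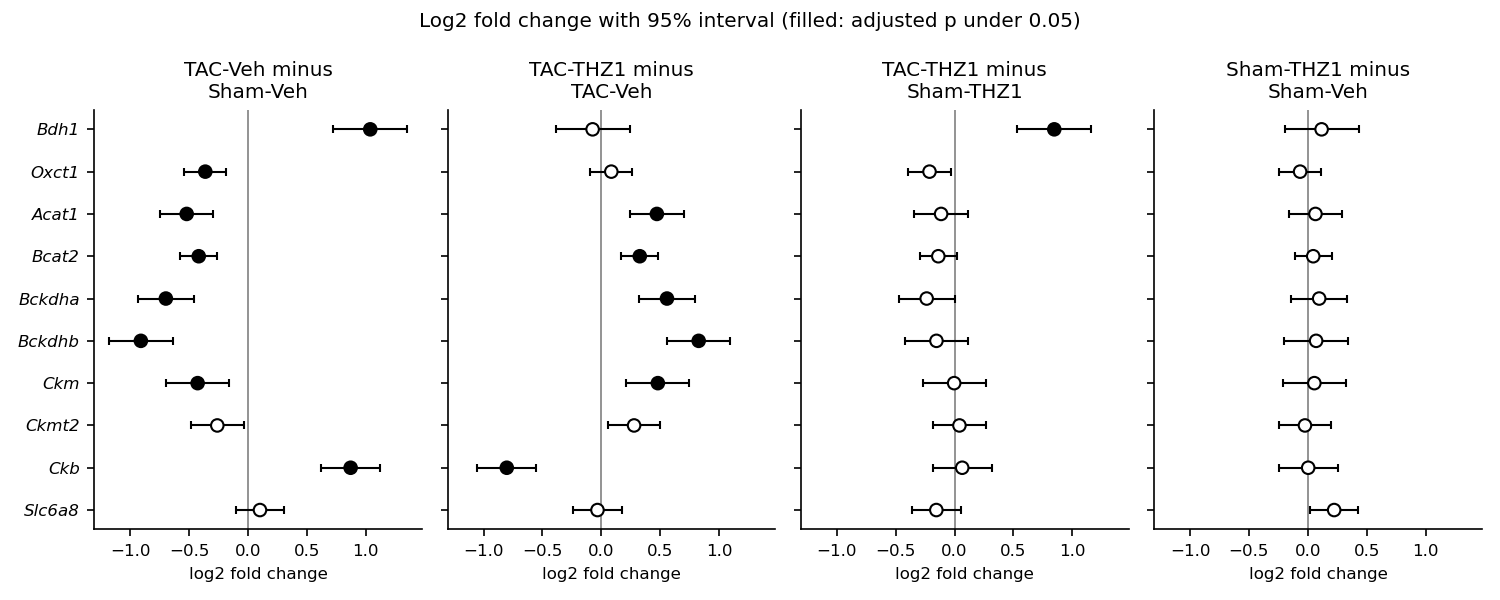
Log2 fold change (x axis) of each of the 10 genes (y axis) in 4 comparisons, with 95% intervals from limma over 16 libraries. Filled circles passed an adjusted p of 0.05. Bdh1 is at 1.04 in the first panel and at 0.85 for TAC-THZ1 minus Sham-THZ1.

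Ketone body use showed no common direction. Bdh1 (ENSMUSG00000046598.8, chromosome 16, 31422366 to 31458987, plus strand, NCBIM37), the mitochondrial dehydrogenase that interconverts beta-hydroxybutyrate and acetoacetate, was at 2391, 2489, 3250 and 2621 normalized counts in the 4 Sham-Veh libraries. In TAC-Veh it was at 6132, 4345, 6181 and 5463 normalized counts. In TAC-THZ1 it remained at 4766, 4569, 5585 and 6027 normalized counts, and in Sham-THZ1 it was at 3663, 3215, 2661 and 2238. Every TAC library therefore lay above every sham library, whatever the treatment. Bdh1 rose with TAC by a log2 fold change of 1.04 ± 0.15 (SE, limma adjusted p = 4.46e-05), a 2.05-fold change. THZ1 changed it in TAC mice by -0.07 ± 0.15 (limma adjusted p = 0.743), with a 95% interval of -0.39 to 0.24. Bdh1 was also the gene of the 10 that still differed between TAC-THZ1 and Sham-THZ1, by 0.85 ± 0.15 (limma adjusted p = 0.00164).

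Oxct1 (ENSMUSG00000022186.8, chromosome 15, 3976383 to 4105344, plus strand), which transfers CoA to acetoacetate and is the committed step of ketone use outside the liver, was at 30994, 31405, 33145 and 32433 normalized counts in Sham-Veh and at 25479, 20844, 25685 and 28030 in TAC-Veh. TAC-THZ1 libraries were at 24693, 28325, 24780 and 27901 normalized counts, within the range of TAC-Veh except for 1 library slightly above it. The fall with TAC was -0.36 ± 0.08 on the log2 scale (SE, limma adjusted p = 0.00244), to a mean of 78.2% of that in Sham-Veh, and the difference with THZ1 in TAC was 0.08 ± 0.08 (95% interval -0.09 to 0.26, limma adjusted p = 0.480). Sham-THZ1 libraries lay at 29280 to 31273 normalized counts, above all TAC-THZ1 libraries, and the difference of -0.21 ± 0.08 did not pass (limma adjusted p = 0.0763). That difference passed without TAC-Veh replicate 2 (limma adjusted p = 0.0234), since the spread is estimated over all groups.

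Acat1 (ENSMUSG00000032047.5, chromosome 9, 53388627 to 53418487, minus strand) encodes the mitochondrial thiolase that splits acetoacetyl-CoA into acetyl-CoA and also ends isoleucine breakdown. It was at 14222, 14333, 14211 and 14336 normalized counts in Sham-Veh, the tightest group of any of the 10 genes (coefficient of variation 0.479%). In TAC-Veh it was at 10953, 7569, 11885 and 9939, and in TAC-THZ1 at 12887, 15717, 12467 and 14337 normalized counts. The TAC-Veh libraries lay below all libraries of the other groups. Acat1 fell with TAC by 0.52 ± 0.11 on the log2 scale (SE, limma adjusted p = 0.000967) and rose with THZ1 in TAC by 0.47 ± 0.11 (limma adjusted p = 0.00418). Of the 3 ketone enzymes, only Acat1 passed the test for THZ1 in TAC, and it did not when the compared groups were fitted alone (limma adjusted p = 0.0642). The differences in response between these genes were not tested.

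Other genes of ketone metabolism were split in the same way. Of 10 on a list of synthesis, transport and cytosolic use, 8 passed the filter on low values. With TAC, where 21.4% of all genes were called higher and 23.6% lower, 3 rose, 3 fell and 2 did not pass the test. The genes that rose were Bdh2, the cytosolic relative of Bdh1, by 1.29 ± 0.29 on the log2 scale (SE, limma adjusted p = 0.00173), the monocarboxylate carrier Slc16a6 by 0.83 ± 0.14 (limma adjusted p = 0.000136) and the cytosolic acetoacetyl-CoA synthetase Aacs by 0.69 ± 0.18 (limma adjusted p = 0.00618). Bdh2 was low, with means of 10.6 ± 1.65 normalized counts in Sham-Veh and 28.1 ± 8.89 in TAC-Veh (SD, n = 4). Unlike Slc16a6, the carriers Slc16a7 and Slc16a1, which bring lactate and ketone bodies across the cell membrane, fell, with log2 fold changes of -1.67 ± 0.21 for Slc16a7 (limma adjusted p = 1.06e-05) and -0.26 ± 0.08 for Slc16a1 (limma adjusted p = 0.0168). With THZ1 in TAC 4 genes of the list rose and 1 fell, where 15.1% of all genes were called higher and 14.2% lower. Without TAC-Veh replicate 2 these counts were 1 and 0, where 1365 and 1318 of all 13331 genes tested were called so. Slc16a7 was the gene of the list that rose in either case, by 1.00 ± 0.21 (SE, limma adjusted p = 0.00223) with all libraries. Its level was low, with means of 105 ± 21.2 normalized counts in Sham-Veh and 32.8 ± 10.9 in TAC-Veh (SD, n = 4). The fall of Slc16a1 with TAC also did not pass without that library (limma adjusted p = 0.0597).

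The 3 genes of branched-chain amino acid breakdown among the 10 all fell with TAC and rose with THZ1 in TAC. Bcat2 (ENSMUSG00000030826.9, chromosome 7, 52825523 to 52845080, plus strand), the mitochondrial aminotransferase of the pathway, was at 2162, 2248, 2266 and 2197 normalized counts in Sham-Veh. It was at 1794, 1403, 1874 and 1605 in TAC-Veh and at 2015, 2238, 2003 and 2073 in TAC-THZ1. The TAC-Veh libraries were the 4 lowest of all. Bcat2 fell with TAC by 0.42 ± 0.08 on the log2 scale (SE, limma adjusted p = 0.000312) and rose with THZ1 in TAC by 0.33 ± 0.08 (limma adjusted p = 0.00444), though this rise did not pass when the compared groups were fitted alone (limma adjusted p = 0.0622).

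Bckdha (ENSMUSG00000060376.6, chromosome 7, 26414871 to 26443780, minus strand) and Bckdhb (ENSMUSG00000032263.7, chromosome 9, 83818757 to 84017846, plus strand) encode the alpha and beta chains of the decarboxylase of the ketoacid dehydrogenase complex. Bckdha was at 5962, 5908, 5921 and 6235 normalized counts in Sham-Veh and at 3984, 2912, 4232 and 3823 in TAC-Veh. In TAC-THZ1 it was at 5637, 6420, 4290 and 5672, so that replicate 3 of TAC-THZ1 lay just above the highest TAC-Veh library. Its log2 fold change was -0.70 ± 0.11 with TAC (SE, limma adjusted p = 0.000127) and 0.56 ± 0.11 with THZ1 in TAC (limma adjusted p = 0.00198).

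Bckdhb, whose promoter with 3 GC boxes is shown above, gave the largest fall of the 10 genes. It was at 1237, 1364, 1270 and 1313 normalized counts in Sham-Veh, at 665, 511, 896 and 739 in TAC-Veh and at 1189, 1493, 1068 and 1176 in TAC-THZ1. Sham-THZ1 libraries were at 1373, 1378, 1349 and 1340. The 4 TAC-Veh libraries were the lowest. In TAC-THZ1, replicate 2 lay above every sham library, and the other replicates lay below every sham library. TAC lowered Bckdhb by 0.91 ± 0.13 on the log2 scale (SE, limma adjusted p = 3.53e-05), to a mean of 54.2% of that in Sham-Veh, and THZ1 raised it in TAC by 0.83 ± 0.13 (limma adjusted p = 0.00031), a 1.77-fold change. Without TAC-Veh replicate 2, the lowest library, these values were -0.77 and 0.68, and both still passed (limma adjusted p = 4.38e-05 and 0.00052).

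Of 24 further genes of branched-chain transport, breakdown and regulation, all of which could be tested, 19 fell and 3 rose with TAC, and 18 rose and 1 fell with THZ1 in TAC. Their median log2 fold change was -0.52 with TAC and 0.44 with THZ1 in TAC. Of all genes, 23.6% fell and 21.4% rose with TAC, and 15.1% rose and 14.2% fell with THZ1 in TAC. Without TAC-Veh replicate 2, 14 of the 24 fell and 2 rose with TAC, where 2745 and 2427 of all genes did. With THZ1 in TAC 16 of the 24 then rose and 1 fell, where 1365 and 1318 of all genes did. In TAC-THZ1 against Sham-THZ1, 6 of the 24 were lower and 1 higher, where 12.8% of all genes were lower and 11.4% higher. Without TAC-Veh replicate 2, 8 were lower and 2 higher, where 1842 and 1630 of all 13331 genes tested were called so. Within the dehydrogenase complex, Dbt, its transacylase core, was at 1140 ± 264 normalized counts (SD, n = 4) in TAC-Veh, against 2177 ± 80.5 in Sham-Veh, and at 1762 ± 189 with THZ1 after TAC. Dbt fell with TAC by 0.96 ± 0.12 on the log2 scale (SE, limma adjusted p = 1.05e-05) and rose with THZ1 in TAC by 0.65 ± 0.12 (limma adjusted p = 0.000983).

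The largest fall was that of Ppm1k, the phosphatase that activates the complex, at 938 ± 210 normalized counts in TAC-Veh against 2891 ± 281 in Sham-Veh (mean ± SD, n = 4). Its mean was 1748 ± 291 normalized counts in TAC-THZ1 and 2782 ± 130 in Sham-THZ1. Ppm1k changed by -1.65 ± 0.14 on the log2 scale with TAC (SE, limma adjusted p = 3.75e-07) and by 0.91 ± 0.14 with THZ1 in TAC (limma adjusted p = 0.000279), and it was still lower in TAC-THZ1 than in Sham-THZ1 by 0.68 ± 0.14 (limma adjusted p = 0.00335). Bckdk, the kinase that inactivates the complex, changed far less, by -0.20 ± 0.08 with TAC (limma adjusted p = 0.0398, and 0.112 without TAC-Veh replicate 2) and by 0.25 ± 0.08 with THZ1 in TAC (limma adjusted p = 0.0224, and 0.0736 without that library).

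Downstream, Ivd, which oxidises isovaleryl-CoA from leucine, fell by 1.02 ± 0.13 on the log2 scale (SE, limma adjusted p = 1.14e-05), and Aldh6a1, the semialdehyde dehydrogenase of valine breakdown, by 1.06 ± 0.13 (limma adjusted p = 8.23e-06). Both rose with THZ1 in TAC, by 0.63 ± 0.13 and 0.59 ± 0.13 (limma adjusted p = 0.00189 and 0.0029). Klf15, a transcription factor known to drive the pathway in heart, fell from 1166 ± 164 to 765 ± 344 normalized counts (log2 fold change -0.70 ± 0.23, limma adjusted p = 0.0201), a fall that was -0.46 and did not pass without TAC-Veh replicate 2 (limma adjusted p = 0.0766). The 3 genes that rose with TAC act at the cell membrane or in the cytosol. They were the amino acid carrier Slc7a5 (0.87 ± 0.12 on the log2 scale, limma adjusted p = 2.51e-05), its partner chain Slc3a2 (0.46 ± 0.14, limma adjusted p = 0.0142) and the cytosolic aminotransferase Bcat1 (0.81 ± 0.27, limma adjusted p = 0.022). Without TAC-Veh replicate 2 the value for Bcat1 was 0.50 (limma adjusted p = 0.0824). Bcat1 was also the gene that fell with THZ1 in TAC (-1.14 ± 0.27, limma adjusted p = 0.00529).

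**Figure D3:**
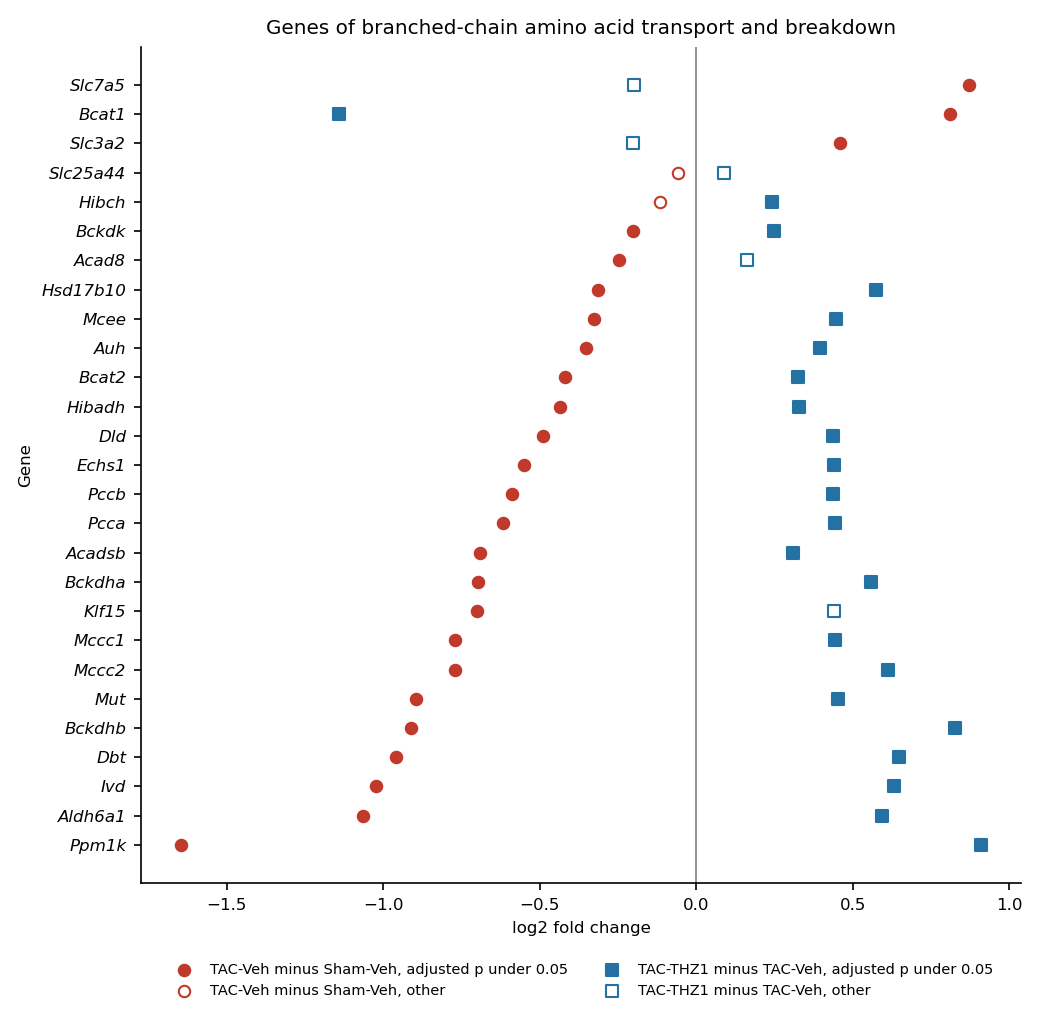
Log2 fold change (x axis) of the 3 branched-chain enzymes and the 24 further genes of the pathway (y axis, ordered by the change with TAC). Red circles give TAC-Veh minus Sham-Veh, blue squares TAC-THZ1 minus TAC-Veh, and filled symbols passed an adjusted p of 0.05. Ppm1k lies lowest at -1.65 with TAC, and Slc7a5, Bcat1 and Slc3a2 lie on the other side of 0.

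The creatine genes split by isoform. Ckm (ENSMUSG00000030399.1, chromosome 7, 19996443 to 20006932, plus strand), the cytosolic creatine kinase of muscle, was at 40434, 43388, 43485 and 45099 normalized counts in Sham-Veh and at 32191, 23692, 41592 and 33098 in TAC-Veh. It was at 42239, 49699, 39910 and 47407 in TAC-THZ1, and TAC-Veh replicate 3 overlapped both groups. Ckm fell with TAC by 0.43 ± 0.13 on the log2 scale (SE, limma adjusted p = 0.0115) and rose with THZ1 in TAC by 0.48 ± 0.13 (limma adjusted p = 0.00986). Without TAC-Veh replicate 2 the fall with TAC was -0.28 (limma adjusted p = 0.0289). Fitted on the compared groups alone, neither difference passed (limma adjusted p = 0.0531 and 0.0982).

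Ckmt2 (ENSMUSG00000021622.3, chromosome 13, 91992992 to 92016490, minus strand), the creatine kinase of heart and skeletal muscle mitochondria, was at 45287, 45456, 47574 and 46918 normalized counts in Sham-Veh. It was at 40350, 31684, 47777 and 36465 in TAC-Veh and at 43882, 52547, 42572 and 49058 in TAC-THZ1. TAC-Veh replicate 3 was above all Sham-Veh libraries, while the other TAC-Veh libraries were below them. The log2 difference was -0.26 ± 0.11 with TAC (SE, limma adjusted p = 0.0541) and 0.28 ± 0.11 with THZ1 in TAC (limma adjusted p = 0.0576). Single TAC-Veh libraries moved both values. Without replicate 3 both passed, at -0.36 (limma adjusted p = 0.0052) and 0.38 (limma adjusted p = 0.00548), and without replicate 2 they were -0.17 (limma adjusted p = 0.166) and 0.18 (limma adjusted p = 0.172).

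Ckb (ENSMUSG00000001270.8, chromosome 12, 112907566 to 112910549, minus strand), the cytosolic creatine kinase typical of brain, moved the other way. It was at 548, 561, 645 and 601 normalized counts in Sham-Veh and at 601, 537, 610 and 611 in Sham-THZ1. In TAC-Veh it was at 1423, 1120, 911 and 921, and in TAC-THZ1 at 591, 551, 713 and 620. The 4 TAC-Veh libraries lay above the 12 others. The TAC-THZ1 libraries overlapped with both sham groups. Ckb rose with TAC by 0.87 ± 0.12 on the log2 scale (SE, limma adjusted p = 2.88e-05), a 1.83-fold change, and fell with THZ1 in TAC by 0.80 ± 0.12 (limma adjusted p = 0.00025). Of the 40-base windows of its transcript, 31.9% occurred at more than 1 place in the NCBIM37 genome, so its level is less certain than those of the others, for which this share was 0% to 1.04%.

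Slc6a8 (ENSMUSG00000019558.8, chromosome X, 70918489 to 70927841, plus strand), the creatine transporter, was at 3796, 3864, 4080 and 4554 normalized counts in Sham-Veh. It was at 3752, 4218, 4187 and 5447 in TAC-Veh and at 4631, 4196, 3951 and 4293 in TAC-THZ1, so the 3 groups overlapped. Its log2 difference was 0.10 ± 0.10 with TAC (95% interval -0.10 to 0.31, limma adjusted p = 0.419) and -0.03 ± 0.10 with THZ1 in TAC (95% interval -0.24 to 0.17, limma adjusted p = 0.830).

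Of 9 further genes of creatine synthesis and phosphate transfer, 8 could be tested. With TAC 1 rose and 2 fell, where 45.0% of all genes were called. With THZ1 in TAC 2 rose and none fell, where 29.4% of all genes were called. Slc25a5, an ADP and ATP carrier of the inner mitochondrial membrane, rose with TAC by 0.36 ± 0.10 on the log2 scale (SE, limma adjusted p = 0.00716), while the adenylate kinases Ak1 and Ak4 fell by 0.37 ± 0.09 and 0.38 ± 0.09 (limma adjusted p = 0.00378 and 0.00224). The synthesis enzymes were low and did not pass. Gatm was at 123 ± 8.25 normalized counts in Sham-Veh and 140 ± 17.4 in TAC-Veh (limma adjusted p = 0.424), and Gamt at 86.1 ± 4.39 and 82.9 ± 21.6 (SD, n = 4, limma adjusted p = 0.700). For comparison, 13 of 13 genes of the citric acid cycle fell with TAC (12 without TAC-Veh replicate 2) and 13 of 13 rose with THZ1 in TAC, with median log2 fold changes of -0.50 and 0.42. The largest falls there were those of Sdha at -0.81 ± 0.10 (SE, limma adjusted p = 1.00e-05), Suclg2 at -0.72 ± 0.10 (limma adjusted p = 3.22e-05) and Cs at -0.70 ± 0.10 (limma adjusted p = 3.82e-05).

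Isoform balance was measured within each library as a ratio of normalized counts per kb, into which no scaling between libraries enters. Ckb made up 0.624%, 0.616%, 0.691% and 0.637% of the summed creatine kinases in Sham-Veh and 1.89%, 1.95%, 0.992% and 1.28% in TAC-Veh. In TAC-THZ1 the shares were 0.669%, 0.526%, 0.841% and 0.627%, below every TAC-Veh library. The Ckb share was 0.888 percentage points higher in TAC-Veh than in Sham-Veh and 0.864 lower in TAC-THZ1 than in TAC-Veh. Each difference had the smallest p that an exact two-sided permutation test of 4 against 4 allows (p = 0.0286), which became 0.0571 after adjustment over 12 such tests, so none of these ratios passed. Even at its highest, Ckb remained below 2 in 100 creatine kinase transcripts by this measure. The measure is uncertain for Ckb, since 31.9% of its 40-base windows occurred at more than 1 place in the genome. For Ckm and Ckmt2 this share was 0%. Its effect on the Ckb share was not tested.

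Bcat1 likewise made up 0.409% to 0.674% of the branched-chain aminotransferases in Sham-Veh, 0.855% to 2.74% in TAC-Veh and 0.372% to 0.519% in TAC-THZ1. The difference with TAC was 0.861 percentage points (exact permutation p = 0.0286, adjusted p = 0.0571), and it dropped to 0.411 without TAC-Veh replicate 2. The log2 ratio of the kinase Bckdk to its target Bckdha was -1.89 ± 0.16 (SD, n = 4) in TAC-Veh and -2.20 ± 0.17 with THZ1 after TAC, where the sham groups were at -2.38 ± 0.04 with vehicle and -2.43 ± 0.02 with THZ1. All TAC-Veh ratios lay above all sham ratios (exact permutation p = 0.0286, adjusted p = 0.0571), and those of TAC-THZ1 overlapped with TAC-Veh (exact permutation p = 0.0571, adjusted p = 0.0857).

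**Figure D4:**
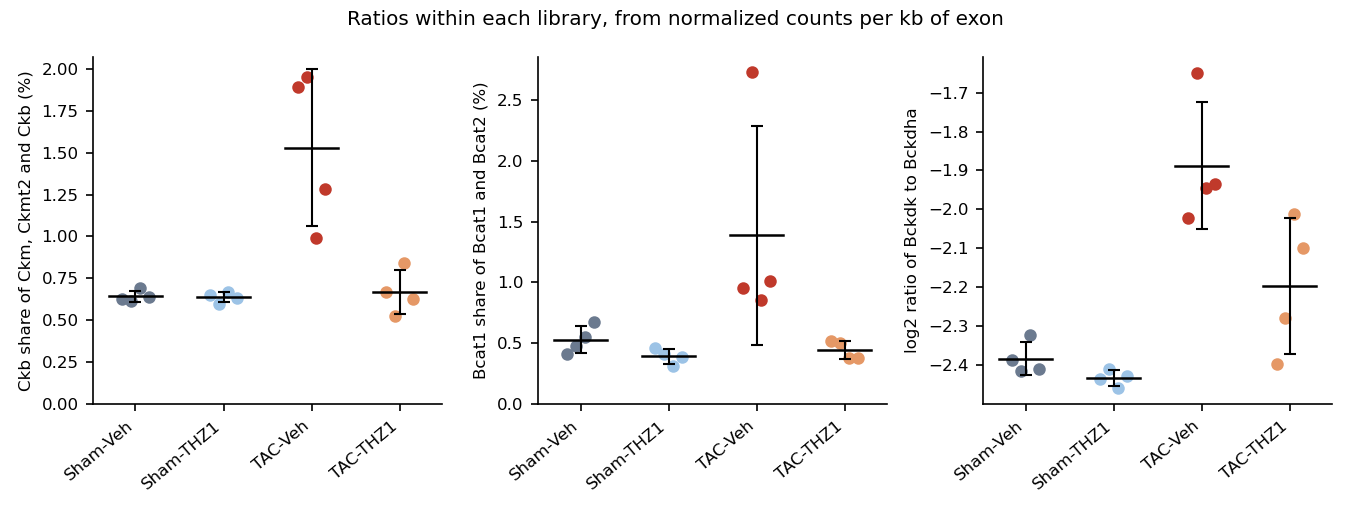
Ratios within a library (y axes: percent for the left and middle panels, log2 for the right) in the 4 groups (x axis). Points are libraries, lines are means and bars are SD over 4 libraries. The Ckb share in TAC-Veh spans 0.992% to 1.95%, above the other groups, and 1 TAC-Veh library lies far above the rest for the Bcat1 share, at 2.74%.

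Between TAC-THZ1 and Sham-THZ1, 1 of the 10 genes differed, Bdh1, where 24.2% of all genes were called, 11.4% higher and 12.8% lower. Bdh1 (upward) and Oxct1 (downward) were the genes without overlap, as were 33.4% of all genes (15.7% upward and 17.7% downward). DESeq2 called Oxct1 as well. The 95% intervals for Ckm, Ckmt2 and Ckb were -0.27 to 0.26, -0.18 to 0.26 and -0.19 to 0.32 on the log2 scale. Those of the 3 branched-chain enzymes reached down to -0.30 for Bcat2, -0.47 for Bckdha and -0.42 for Bckdhb, so differences up to these sizes lay within the intervals.

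THZ1 in sham mice changed none of the 10 genes by limma, where 0.0675% of all genes were called, 0.0225% higher and 0.045% lower. One had an unadjusted p under 0.05, Slc6a8, which lay at 5225, 4829, 4556 and 4407 normalized counts in Sham-THZ1, 0.22 ± 0.10 above Sham-Veh on the log2 scale (SE, limma adjusted p = 0.692). DESeq2 and edgeR called 0 of the 10, and 33 and 10 of all genes. Acat1 was the only one of the 10 whose sham groups did not overlap, at 14455 to 15305 normalized counts in Sham-THZ1 against 14211 to 14336 in Sham-Veh (limma adjusted p = 0.971), where 11.3% of all genes did not overlap, 6.29% upward and 5.05% downward.

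Whether THZ1 acted differently after TAC than after sham was tested directly as the difference between its effects. This interaction was called for 2 of the 10 genes, where 10.0% of all genes were called, 4.4% upward and 5.62% downward. For Bckdhb the effect was 0.76 ± 0.18 more positive after TAC (SE, log2 scale, limma adjusted p = 0.0173), and for Ckb it was 0.81 ± 0.17 more negative (limma adjusted p = 0.00952). Among the branched-chain list, 7 of 24 genes passed upward and none downward, including Ppm1k at 0.96 ± 0.20 (SE, limma adjusted p = 0.00826) and Dbt at 0.67 ± 0.17 (limma adjusted p = 0.021). Without TAC-Veh replicate 2, 5 of the 24 passed upward, where 852 of all 13331 genes tested were called. For Bdh1 the interaction was -0.19 ± 0.21 with a 95% interval of -0.64 to 0.25 (limma adjusted p = 0.605). Without TAC-Veh replicate 3, the TAC-Veh library nearest to sham for Ckm and Bckdhb, 7 of the 10 genes passed. In that fit 2479 of all 13331 genes tested were called, against 1336 with all libraries.

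Markers of cell types moved with these groups. Of 8 cardiomyocyte markers, 4 fell with TAC and 4 rose with THZ1 in TAC, and none was at 0 in all libraries of a group. Their summed level was 1.53 to 1.60 M normalized counts in either sham group, 0.922 to 1.28 M for TAC-Veh and 1.35 to 1.62 M for TAC-THZ1. Of 7 fibroblast markers, 5 rose with TAC (6 without TAC-Veh replicate 2) and 5 fell with THZ1 in TAC, with sums of 51523 to 91604 normalized counts for TAC-Veh and 27895 to 39367 for TAC-THZ1, where Sham-Veh had 26833 to 29762 and Sham-THZ1 26059 to 28568. Among 7 macrophage markers 4 rose with TAC (2 without TAC-Veh replicate 2) and none passed with THZ1 in TAC. Of 6 endothelial markers, 2 fell with TAC (1 without that library) and 3 fell with THZ1 in TAC (2 without that library). Of these 6, 4 were lower in TAC-THZ1 than in Sham-THZ1. Of 6 smooth muscle and pericyte markers, 1 rose (0 without that library) and 3 fell with TAC, 1 fell with THZ1 in TAC and 4 were lower in TAC-THZ1 than in Sham-THZ1. Of 4 skeletal muscle markers tested, 1 rose and 1 fell with TAC and 1 rose with THZ1 in TAC (0 without that library), and of 4 nerve and glia markers 1 rose and 2 fell with TAC, while 2 rose and 1 fell with THZ1 in TAC (2 and 0 without that library). The part of these cell types in the changes of the 10 genes was not tested. Without TAC-Veh replicate 2, which is the extreme library for the cardiomyocyte and fibroblast sums, the same 8 genes were called with TAC and the same 6 with THZ1 in TAC. In that fit 5172 and 2683 of all genes were called, against 6003 and 3918 with all libraries. The remaining TAC-Veh libraries lay below every sham library for the cardiomyocyte sum and above every sham library for the fibroblast sum. Leaving out replicate 2 therefore kept the group difference in these markers, so this fit was no test of the part of cell types.

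Other genes shared these patterns across the 16 libraries. By Pearson's correlation of log2 values, given as a description since the libraries share their groups, the closest to Bdh1 were Sergef (r = 0.933), Cpxm2 (r = 0.931) and Gemin7 (r = 0.928). Cpxm2, a carboxypeptidase-like protein, averaged 1087 normalized counts in Sham-Veh and 909 in Sham-THZ1, but 2780 after TAC with vehicle and 2548 after TAC with THZ1. The closest to Bckdhb were Sord, sorbitol dehydrogenase (r = 0.993), Rpl3l, a ribosomal protein of striated muscle (r = 0.992), and Ldhb, the heart form of lactate dehydrogenase (r = 0.992). The closest to Ckb were the thrombin receptor F2r (r = 0.979), the actin-binding protein Dbn1 (r = 0.976) and annexin Anxa5 (r = 0.969). F2r averaged 2702 normalized counts in TAC-Veh and 929 to 1094 in the other groups.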

How the data were processed

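Stranded mRNA libraries were made from ventricle pieces of 16 mice. The authors aligned the reads to mm9 with TopHat2 2.1.1, counted them per GENCODE gene in stranded mode with HTSeq, and divided each library by its DESeq2 size factor, so the deposited signal is a normalized read count per gene and library. The deposited table held 22372 genes, and its 16 columns were all mapped to samples. The labels named no sequencing batch. Counting was stated to use strand, so reads from antisense genes overlapping Ckm, Oxct1, Bcat2 and Ckmt2 were kept apart.

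Values were whole multiples of what 1 read is worth in 100% of cases (tolerance 0.01), which gave the recovered reads. Genes with at least 10 normalized counts in at least 4 libraries (13331) were fitted as log2(normalized count + 1) with limma 3.58.1 in R 4.3.3, using 1 mean per group over 16 libraries and eBayes with a trend, so fold changes are on this scale. Tests were two-sided, p-values were adjusted by Benjamini-Hochberg over all genes within each of 5 contrasts, and 0.05 was the threshold. DESeq2 1.42.0 and the edgeR 4.0.16 quasi-likelihood test on the recovered reads were alternatives, and called 6138 and 6067 genes with TAC, where limma called 6003, and 4170 and 3981 with THZ1 in TAC, where limma called 3918. Ratios used exact permutation tests. Other alternatives changed the pseudocount, filter, scaling, weights, threshold and libraries, and the counts of the pathway lists without TAC-Veh replicate 2 and with the count models were chosen after seeing the data. The fits were tested on simulated data with the same spread in every group, which does not cover the wider spread of TAC-Veh. The genes named were the 10 genes, 9 set genes of the pathway lists and the 3 of each list that changed most in each direction with TAC. The values of 1 gene of the ketone list are not reported here. Macrophage, endothelial, smooth muscle, skeletal muscle, nerve and fat cell markers were further lists, with fat cell markers below the filter. The genes and lists were chosen with earlier results of these data known. Same-numbered libraries did not deviate together, since 2 of 24 correlations were over 0.1 (median 0.0215). Promoters were RefSeq sequences (GRCm38.p6), and gene positions were from GENCODE on NCBIM37.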

Additional observations from a re-analysis of the deposited data

Results flagged for a closer look

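In 3 of 52 groups of 4 libraries, 1 library lay far from the other 3 by Dixon's ratio of its gap to the whole range of the group, where chance gives about 2.6 such groups. Bckdha in replicate 4 of Sham-Veh was above the others (ratio 0.8357), at 6235 normalized counts against 5908 to 5962. Ckb in replicate 2 of Sham-THZ1 was below the others (ratio 0.8686), at 537 normalized counts against 601 to 611. The Bcat1 share of the branched-chain aminotransferases in TAC-Veh replicate 2 was above the others (ratio 0.9171), at 2.74% against 0.855% to 1.01%.

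For 2 genes the interaction test of limma gave a different THZ1 effect after TAC than after sham. It was 0.756 more positive on the log2 scale after TAC for Bckdhb (adjusted p = 0.0173), which TAC lowered. For Ckb, which TAC raised, the difference was -0.8057 (adjusted p = 0.00952).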

How the results depend on the processing

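With TAC, 8 genes were called by limma, 9 by DESeq2 and 8 by edgeR, and with THZ1 in TAC 6, 7 and 6, and leaving out each library in turn gave 8 to 9 and 6 to 7. Of all 13331 genes tested, leaving out each library gave 5063 to 6427 with TAC and 2683 to 4576 with THZ1 in TAC. The fold thresholds of the study's methods (log2 1 and 0.89) left 1 of the 10 genes with TAC (Bdh1) and 0 with THZ1 in TAC. Over libraries left out, these became 0 to 1 with TAC (0 without Sham-Veh replicate 1 or TAC-Veh replicate 1) and 0 to 1 with THZ1 in TAC (1, Bckdhb, without TAC-Veh replicate 3 or TAC-THZ1 replicate 3). Fitting the compared groups alone left 3 genes with THZ1 in TAC (Bckdha, Bckdhb and Ckb). Of all genes, 1399 were then called, against 3918 in the main fit. For TAC-THZ1 against Sham-THZ1 the 1 call became 2 in groups fitted alone, 2 with DESeq2, 3 with array weights, and 1 to 2 with libraries left out (2 without TAC-Veh replicate 2). Of all genes, 3220 were called in the main fit, 4411 in groups fitted alone, 3591 with DESeq2 and 5011 with array weights. In sham, array weights called 1 gene (Slc6a8), where 513 of all genes were called, against 9 in the main fit. The interaction called 4 with quantile normalization, 5 with array weights, 1 at an adjusted p under 0.01, and 2 to 7 with libraries left out (7 without TAC-Veh replicate 3). The counts over all genes were 1449 with quantile normalization, 1832 with array weights and 690 to 2479 with libraries left out. The main fit called 1336. The cause of these changes was not tested.

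Small differences that had not passed changed sign. With TAC, Slc6a8 ranged from -0.00602 (without TAC-Veh replicate 4) to 0.173 over libraries left out. With THZ1 in TAC, Oxct1 was -0.0344 with quantile normalization and -0.000146 (without TAC-Veh replicate 2) to 0.142 over libraries left out, and Slc6a8 was -0.105 to 0.0746 (without TAC-Veh replicate 4). For TAC-THZ1 minus Sham-THZ1, Ckm was 0.0334 with upper quartile scaling, 0.0198 with totals without mitochondrial genes, 0.0287 with array weights, 0.00232 with DESeq2, 0.00458 with edgeR and -0.0551 to 0.0504 over libraries left out. Ckmt2 was -0.0188 with quantile normalization and -0.0140 to 0.0873 over libraries left out, and Ckb -0.00518 to 0.118. In sham, Ckb was -0.0221 with upper quartile scaling, -0.0132 with totals without mitochondrial genes, -0.0109 with array weights, -0.00403 with edgeR and -0.0300 to 0.0482 over libraries left out. The Ckb share differed by -0.0291 to 0.0759 percentage points between TAC-THZ1 and Sham-THZ1, and by -0.0159 to 0.0109 in sham, over libraries left out.

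With the replicate number as a block, 8, 6, 1, 0 and 2 of the 10 genes were called in the 5 contrasts, as without it. Of all genes, 5838, 3747, 3041, 7 and 1134 were called with the block. Same-numbered libraries did not deviate together, so the numbers give no pairing.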
